A study of Rattus norvegicus with 15 samples.

Results

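Noncancerous cirrhotic liver of rats on a choline-deficient diet was compared with liver of rats on a basal diet. The samples were chosen by their titles: 5 of noncancerous tissue and 5 of control tissue, 10 of the 15 in the series. The control samples were normal liver of male Fischer344 rats (the strain is given as Fischer for control 1) after 70 weeks on the basal diet. The noncancerous samples were the cirrhotic tissue next to hepatocellular carcinoma in male Fischer344 rats that had eaten the choline-deficient, amino acid-defined diet for the same 70 weeks. The other 5 samples were those carcinomas, on the same diet, and they entered the fit for the estimate of spread. No age, and no drug or genetic change, is named for any group. The labels do not say that the samples of a group came from separate animals, so the p-values rest on the spread among these arrays, which may be technical. Noncancerous tissue next to a tumour differs from control liver in diet, cirrhosis and tumour-bearing host together, and these cannot be told apart here.

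Choline is needed to make phosphatidylcholine, the main phospholipid of membranes and of the very low density lipoprotein particles by which hepatocytes export triglyceride. The liver can also make phosphatidylcholine by methylating phosphatidylethanolamine, with the enzyme Pemt and the methyl donor S-adenosylmethionine. A diet without choline therefore leads to fat accumulation, hepatocyte death and regeneration, and in rats with time to cirrhosis and hepatocellular carcinoma. In cirrhosis, stellate cells become collagen-producing myofibroblasts, and bands of matrix, small bile ducts and inflammatory cells surround nodules of regenerating hepatocytes.

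Of 3757 probes, 3440 carried exactly 1 gene symbol in the platform annotation and covered 3400 genes. Where a gene had several probes, as 38 had, the one that varied least inside the groups stood for it. The deposited values are ratios in which the median of each probe over the 15 arrays is 1. They were quantile-normalized and put on the log2 scale, so 0 stands for a probe's typical ratio and 1 for a doubling. A ratio is not a level, so genes cannot be ranked by abundance and the labelled tissue cannot be checked by the level of its markers. All 8 fixed hepatocyte markers were on the array, beside 7 of 10 for stellate cells, 4 of 8 for cholangiocytes and 3 of 9 for Kupffer cells. Lymphocytes had 7 of 13, endothelium 3 of 7 and neutrophils or mast cells 4 of 8. No coordinates are given because the table names no genome build.

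Values at the lower limit of the table, a ratio of 0.01, numbered 229 in control 1, 209 in noncancerous 1, 76 in control 3, 65 in control 2, and 0 to 10 in the other 6 samples. After normalization such values stood at -2.39 in control 1, -2.46 in noncancerous 1, -3.19 in control 3 and -3.36 in control 2, and they are bounds rather than measurements. Of the 161 genes named below, 31 had 1 or 2 such values, and their fitted differences depend on where the bound was placed. Not all of these values are pointed out again where the gene is named. Precision is set by 5 arrays a group: over all probes, the 95% interval reached a median of 1.27 (log2) to either side of the difference.

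Control 5 and noncancerous 2 resembled each other more than any other pair of the 10 samples did. Over all probes their log2 ratios correlated with Pearson's r = 0.73, while the other 24 pairs of a control with a noncancerous sample reached at most 0.25. Pairs within the control group ranged from -0.35 to 0.51 and pairs within the noncancerous group from -0.26 to 0.44. Alb, which encodes serum albumin, shows the likeness, at -4.07 in control 5 and -5.40 in noncancerous 2. Albumin differed between the groups by 0.90 (95% interval -1.45 to 3.25), by 1.08 after the position adjustment described next, by 0.11 without control 5 and by 2.32 without noncancerous 2. Noncancerous 2 had both the highest r within its own group, 0.44 with noncancerous 5, and the lowest, -0.26 with noncancerous 1. Its mean r with its group was 0.14, beside the 0.73 with control 5. Control 5 had a mean r of -0.080 with the other controls, and noncancerous 1 one of -0.12 with its group and 0.56 with carcinoma 1. What made control 5 and noncancerous 2 alike was not tested.

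**Figure D1:**
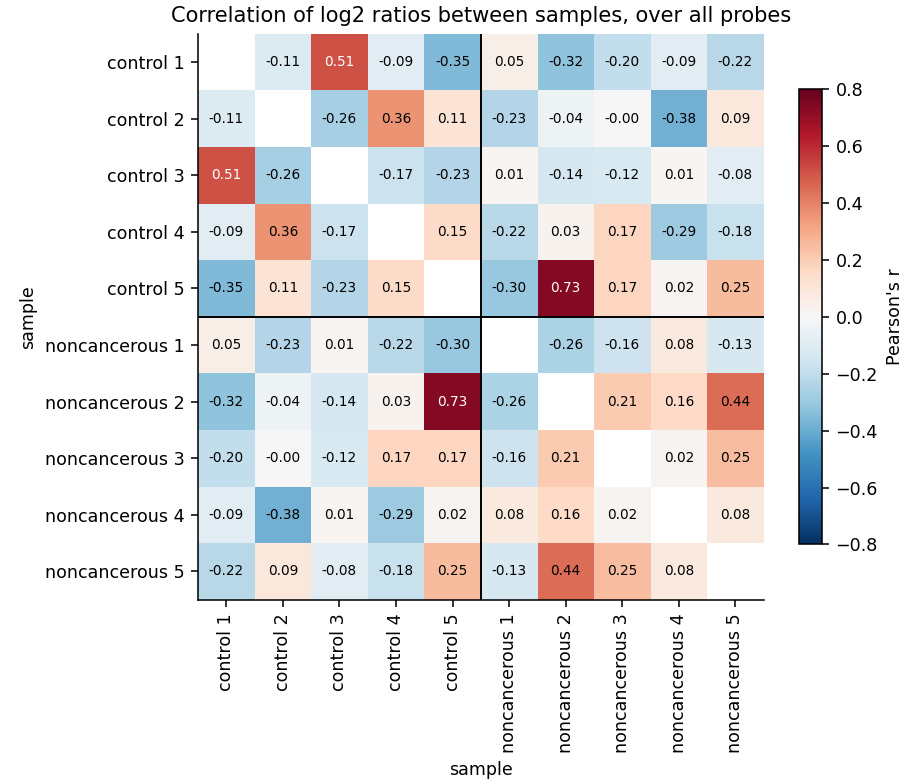
Pearson's r between the log2 ratios of each pair of the 10 samples over all 3757 probes, with black lines between the groups. Control 5 and noncancerous 2 have the highest value, 0.73, and control 1 and control 3 follow with 0.51.

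The differences between the groups also followed the numbering of the probes on the platform. The median difference, noncancerous minus control, was 0.89 for the probes numbered 1200 to 1399 and -1.07 for those numbered 3600 to 3799. Probes are numbered largely in the order of their sequence accessions, with 91.1% of 3443 neighbouring pairs in alphabetical order. Accessions of the same kind gave opposite medians at the 2 ends of the numbering. Those beginning with M had a median of 0.55 over 452 probes numbered under 1600 and -1.08 over 33 probes numbered 3200 or more. Those beginning with L had 0.60 over 191 probes and -0.94 over 68. The differences of genes and the medians of gene lists below are therefore given a second time, with a running median over each probe and the 50 probes on either side of it subtracted from every array, and these values are called position-adjusted. In brackets after a gene's difference, 2 numbers joined by to are its 95% interval, and a number with no word beside it is position-adjusted. A value without 1 named sample follows where that sample accounts for over 1/3 of the difference of a gene, or of a list's median beyond 0.25. What caused the shift along the numbering was not tested.

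**Figure D2:**
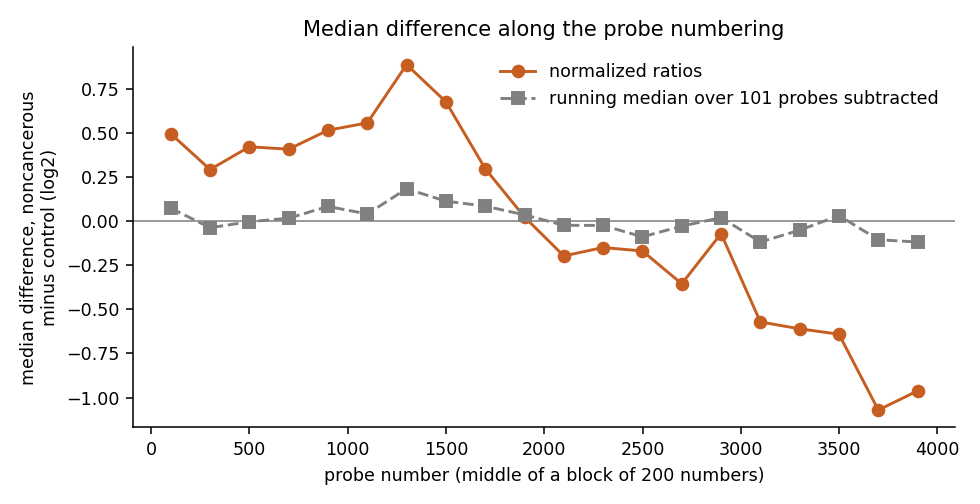
Median difference between noncancerous and control liver (log2) over successive blocks of 200 probe numbers, on the normalized ratios (circles) and position-adjusted (squares). The normalized medians run from 0.89 over numbers 1200 to 1399 down to -1.07 over numbers 3600 to 3799.

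No single probe separated the 2 kinds of liver at the adjusted threshold. In limma, 0 of 3757 probes passed a Benjamini-Hochberg adjusted p of 0.05, and the smallest adjusted p was 0.307. An unadjusted p under 0.05, called nominal here, was reached by 362 probes, 9.64% of the probes, of which 151 (4.02%) were higher and 211 (5.62%) lower in noncancerous liver. Of the 151 higher, 148 had a probe number under 2000, and of the 211 lower, 204 had a number of 2000 or more. Position-adjusted, 151 probes were nominal, 4.02% of the probes, with 82 (2.18%) higher and 69 (1.84%) lower, and 103 probes were nominal in the same direction by both measures. By genes, 321 of 3400 were nominal, 9.44%, with 3.97% higher and 5.47% lower. Position-adjusted 138 were, 4.06%, with 2.18% higher and 1.88% lower. The nominal counts of gene lists below are to be read beside these shares, also where the shares are not repeated. The 5 values of a group lay completely beyond the 5 of the other group for 57 of 3400 genes, 1.68%. All 24 such genes that were higher in noncancerous liver had probe numbers under 2000, as did 3 of the 33 that were lower.

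Of those 57 genes, 12 remained separated after position adjustment, where 16 of 3400 genes (0.471%) were separated. The 6 that were higher in noncancerous liver are 3 membrane carriers, a growth factor receptor and 2 proteins of calcium transport. The 6 that were lower are an aspartate aminotransferase, a fibrillar collagen chain, an immunophilin, a transcription factor, a peptide hormone and a lipoprotein receptor family member. None passed the adjusted threshold, and the separation that chose them is a description, not a test.

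Slc10a1 encodes the sodium-taurocholate cotransporting polypeptide, which takes bile salts up from the blood across the sinusoidal membrane of hepatocytes. Its log2 ratios were -0.15, -0.76, -0.56, -1.59 and -0.27 in control samples 1 to 5 and 1.60, 0.24, 0.39, 0.12 and 1.05 in noncancerous samples 1 to 5. All 5 control values lay below 0 and all 5 noncancerous values above it, with control 4 lowest and noncancerous 1 highest. The groups differed by 1.34 (95% interval 0.13 to 2.56, limma adjusted p = 0.478), a 2.54-fold higher mean ratio, and by 0.95 (-0.01 to 1.92) position-adjusted.

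Slc9a3, the sodium-proton exchanger of absorptive epithelia, had ratios of -0.38, -1.01, -2.20, -0.51 and 0.21 in controls 1 to 5 and 3.09, 1.25, 1.35, 0.77 and 1.22 in noncancerous 1 to 5. Noncancerous 1 stood far above the other 4 of its group, and control 5 was the 1 control above 0. The difference was 2.32 (1.11 to 3.52, limma adjusted p = 0.307), or 4.98-fold, and 1.95 (0.79 to 3.11) position-adjusted.

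Slc6a15, a carrier of neutral amino acids best known from the brain, read -2.39, -1.66, -0.03, -4.14 and -0.04 in controls 1 to 5 against 1.08, 0.45, 0.17, 1.01 and 0.97 in noncancerous 1 to 5. Controls 3 and 5 lay just below 0 and close to noncancerous 3, and the value of control 1 was at the lower limit. The difference was 2.39 (0.63 to 4.15, limma adjusted p = 0.391) and 1.87 (0.35 to 3.38) position-adjusted.

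Pdgfra, the alpha receptor for platelet-derived growth factor and a gene of mesenchymal cells, read -0.03, -0.81, 0.38, -2.93 and -0.57 in controls 1 to 5 and 1.11, 0.75, 1.55, 0.88 and 0.62 in noncancerous 1 to 5. The noncancerous values were close together, and control 4 was far below the other controls. The means were -0.79 ± 1.28 in control and 0.98 ± 0.36 in noncancerous liver (SD, n = 5 each). They differed by 1.77 (0.67 to 2.88, limma adjusted p = 0.307), by 1.37 (0.36 to 2.38) position-adjusted, and by 1.92 without control 5 and noncancerous 2.

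Both calcium genes had small gaps between the groups. Cacnb1, a regulatory subunit of voltage-gated calcium channels, ranged up to 0.23 in control and from 0.36 in noncancerous liver and differed by 1.34 (0.25 to 2.44; 0.94 position-adjusted). Atp2b2, a calcium pump of the plasma membrane, ranged up to 0.06 in control and from 0.12 in noncancerous liver and differed by 1.29 (0.01 to 2.57; 1.08 position-adjusted). The limma adjusted p was 0.421 for Cacnb1 and 0.511 for Atp2b2.

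Got1, the cytosolic aspartate aminotransferase that links amino acid nitrogen to the malate-aspartate shuttle, had ratios of 0.93, 1.59, 1.25, 1.45 and 0.24 in controls 1 to 5. In noncancerous 1 to 5 the values were -0.72, -0.61, -0.71, -2.88 and -0.63. Noncancerous 4 lay far below the rest of its group, and control 5 was the lowest control. The difference was -2.20 (-3.29 to -1.11, limma adjusted p = 0.307), a 4.6-fold lower mean ratio, and -1.03 (-1.88 to -0.19) position-adjusted. The probe number is 3704, in the stretch with the lowest medians.

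Col5a2, a chain of the type V collagen found in fibrils with type I collagen, read 0.74, 0.52, 0.47, 2.38 and 0.14 in controls 1 to 5 and -0.86, -0.02, -1.58, -1.11 and -0.53 in noncancerous 1 to 5. Every noncancerous value was below 0 and every control value above it, with control 4 far above the others. The difference was -1.67 (-2.70 to -0.65, limma adjusted p = 0.307) and -0.87 (-1.63 to -0.11) position-adjusted.

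Fkbp1a, the binding protein of the immunosuppressant FK506, read 1.07, 0.48, 1.77, 0.66 and 1.30 in controls 1 to 5 and -1.13, -0.02, -1.98, -1.09 and -0.25 in noncancerous 1 to 5. All controls were above 0 and all noncancerous samples below. It differed by -1.95 (-3.11 to -0.80, limma adjusted p = 0.307) and by -1.11 (-2.07 to -0.15) position-adjusted.

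Pou3f3, a transcription factor best known from brain and kidney, had the lowest p of the genes named here. Its values were 1.18, 0.59, 1.33, 1.87 and -0.45 in controls 1 to 5 and -1.85, -0.85, -1.91, -1.86 and -1.09 in noncancerous 1 to 5, with control 5 and noncancerous 2 nearest to each other. The difference was -2.42 (-3.55 to -1.28, limma adjusted p = 0.307), -1.63 (-2.59 to -0.68) position-adjusted and -2.94 without those 2 samples.

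Gnrh1, the gonadotropin-releasing hormone precursor, and Lrp4, a relative of the low density lipoprotein receptor, had tight control values and wide noncancerous ones. Gnrh1 was 0.28 ± 0.21 in control and -1.24 ± 1.02 in noncancerous liver (SD, n = 5 each), a difference of -1.52 (-2.80 to -0.24; -2.05 position-adjusted). Lrp4 was 0.51 ± 0.21 and -0.80 ± 1.11 (SD, n = 5 each), a difference of -1.31 (-2.88 to 0.25, -1.42 position-adjusted, -0.86 without noncancerous 1). In both genes noncancerous 1 was at the lower limit. The limma adjusted p was 0.421 for Gnrh1 and 0.562 for Lrp4.

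**Figure D3:**
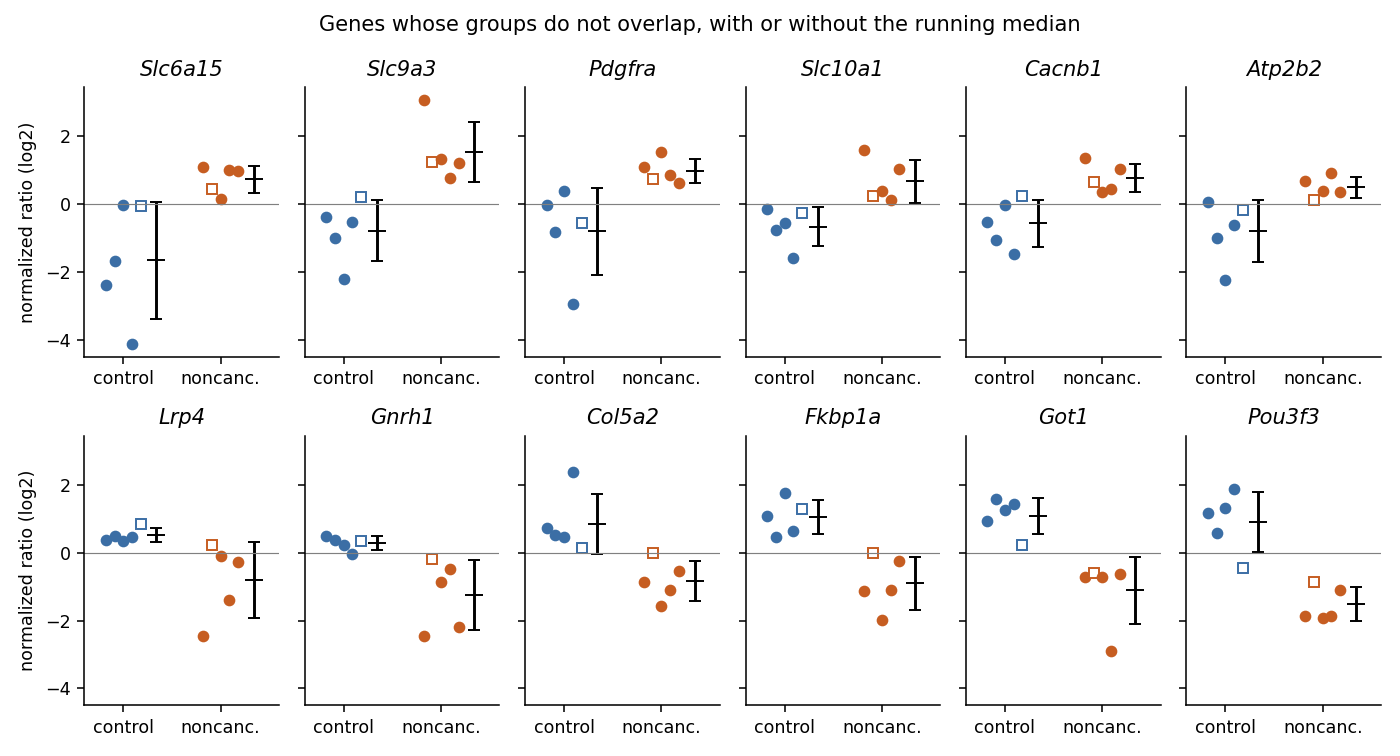
Log2 normalized ratio in each of the 5 control (blue) and 5 noncancerous (orange) samples for the 12 genes separated with and without position adjustment, with open squares for control 5 and noncancerous 2 and bars for mean ± SD. The 6 genes in the upper panels are higher and the 6 in the lower panels lower in noncancerous liver, with no overlap of the groups.

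In the carcinomas of the same diet group, the means of the 6 genes that were higher in noncancerous liver lay between -0.76 and -0.30, nearer the control mean for all 6. Slc10a1 averaged -0.30 ± 1.39 and Pdgfra -0.31 ± 0.37 there (SD, n = 5 each). For the 6 lower genes the carcinoma means lay between -1.06 and 0.33, nearer the control mean for 3. These values share the samples that chose the genes, and no test was made of them.

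The methyl and choline genes, the pathway into which the missing nutrient feeds, had the lowest median of the 54 gene lists. Pemt, the enzyme that methylates phosphatidylethanolamine to phosphatidylcholine, read 1.11, 0.95, 0.34, 1.39 and 0.09 in controls 1 to 5 and -0.33, 0.02, -1.29, -1.23 and -0.64 in noncancerous 1 to 5. The groups did not overlap, though control 5 and noncancerous 2 were nearly equal. Pemt differed by -1.47 (-2.41 to -0.53, limma adjusted p = 0.315) and by -0.63 (-1.40 to 0.13) position-adjusted, where the groups overlapped.

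Bhmt, which passes a methyl group from the choline product betaine to homocysteine, read 0.91, -0.19, 1.17, 3.27 and -0.06 in controls 1 to 5 and -0.64, -0.50, 1.03, -0.70 and -2.05 in noncancerous 1 to 5. Control 4 was far above all others, noncancerous 3 lay among the controls, and the groups overlapped. The difference was -1.59 (-3.13 to -0.05, limma adjusted p = 0.506), -1.29 (-2.60 to 0.01) position-adjusted and -1.05 without control 4. Mat1a, which makes S-adenosylmethionine in hepatocytes, differed by -0.95 (-2.15 to 0.25, -0.38 position-adjusted, -0.57 without noncancerous 4). Gnmt, which consumes S-adenosylmethionine, differed by -0.84 (-2.23 to 0.55, -0.04 position-adjusted, -0.41 without noncancerous 1).

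Of the 20 methyl and choline genes, 7 had a difference above 0 and the median was -0.85 (-0.48 without noncancerous 1), beside 1701 of 3400 and a median of 0.00 over all genes. Nominally 0 were higher and 4 lower, beside the 3.97% and 5.47% of all genes. Gamt, which methylates guanidinoacetate to creatine, was among the lower with -1.81 (-0.64 position-adjusted). Mtr (methionine synthase) and Chkb (a choline kinase) lay furthest on the other side at 0.83 (0.50, 0.44 without noncancerous 4) and 0.83 (0.31, 0.48 without control 2), and neither was nominal. Position-adjusted, the median was -0.07 and 0 members were nominal. Of the 20 probes, 9 are numbered 3200 or more, as are 632 of all 3400.

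The 24 measured genes that were always to be named (of 26 listed) give the values of the processes usually followed in this model. Nominally 5 were lower, namely Pemt, Bhmt, Col1a1, Col3a1 and Hmox1, and 0 higher, beside 5.47% and 3.97% of all genes. Position-adjusted none of these 5 was nominal, and Cyp2c11 was the 1 gene of the 24 that was, beside 4.06% of all genes.

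**Figure D4:**
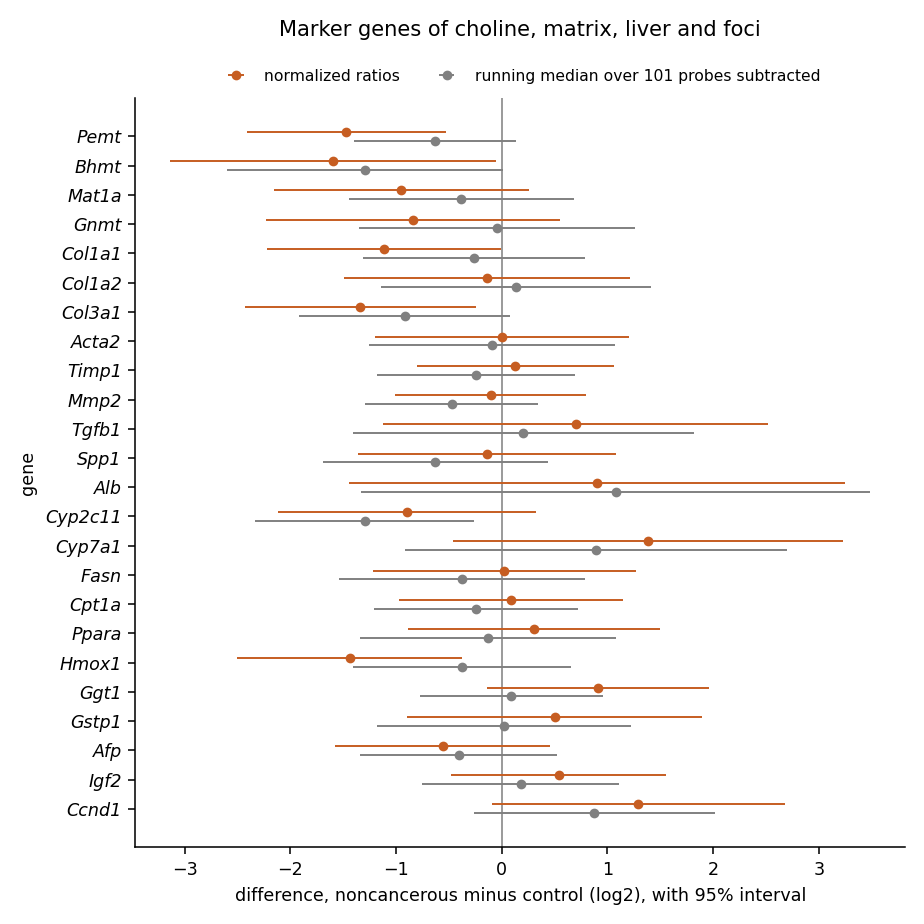
Difference between noncancerous and control liver (log2) with its 95% interval for the 24 measured marker genes, on the normalized ratios (orange) and position-adjusted (grey). Pemt at -1.47 and Col3a1 at -1.34 lie below 0 on the normalized ratios, and position-adjusted only the interval of Cyp2c11, at -1.30, leaves out 0.

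Most genes of the matrix list had a difference below 0 on the normalized ratios, and about as many lay above as below it position-adjusted. Col3a1, the chain of type III collagen, read -0.11, 0.64, -0.25, 0.38 and 0.72 in controls 1 to 5 and -1.46, 0.02, -1.64, -0.76 and -1.47 in noncancerous 1 to 5. Only noncancerous 2 lay among the controls. Col3a1 differed by -1.34 (-2.43 to -0.24, limma adjusted p = 0.421; -0.92 position-adjusted). Col1a1 and Col1a2, the chains of type I collagen, differed by -1.11 (-2.22 to -0.01) and -0.14 (-1.50 to 1.22, 0.068 without control 3), and position-adjusted by -0.26 and 0.14.

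Of 42 genes of collagens, laminins and other matrix proteins, 12 were above 0, with a median of -0.18. Nominally 0 were higher and 6 lower, beside 3.97% and 5.47% of all genes, and position-adjusted 1 was higher and 1 lower with a median of -0.02. Mgp, the matrix Gla protein that limits calcification, differed by -2.33 (-3.65 to -1.02; -1.24 position-adjusted). Among 28 matrix proteases and their inhibitors the median was -0.01 (-0.03 position-adjusted) with 0 nominally higher and 0 lower (1 and 0 position-adjusted). Timp1, the main inhibitor of matrix metalloproteases in fibrotic liver, differed by 0.13 (-0.80 to 1.06, -0.24 position-adjusted, -0.049 without control 3), Mmp2 by -0.10 (-1.01 to 0.80, -0.47 position-adjusted, 0.012 without noncancerous 3) and the collagen cross-linking enzyme Lox by 1.15 (-0.08 to 2.37, 0.49 position-adjusted).

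Stellate cell and myofibroblast markers lay on both sides of 0. The lists of markers counted from here on are broader than the fixed markers given above. On the normalized ratios the fixed markers had medians of 0.01 for stellate cells (7 measured), 0.23 for hepatocytes (8) and 0.34 for cholangiocytes (4). The medians were 0.22 for Kupffer cells (3), 0.26 for lymphocytes (7), 0.94 for endothelium (3) and -0.26 for neutrophils or mast cells (4). Position-adjusted medians of the fixed markers are not given, and that of endothelium rests on 3 genes, with 2 above 0. Nominal were 1 stellate, 1 hepatocyte and 1 endothelial marker and 0 of the others, beside 9.44% of all genes. Acta2, the smooth muscle actin that defines the myofibroblast, differed by 0.0025 (-1.20 to 1.20, -0.10 position-adjusted, -0.49 without control 4), with -0.30 ± 1.24 in control and -0.30 ± 0.52 in noncancerous liver (SD, n = 5 each). Pdgfra and Tgfbr3, the betaglycan coreceptor of transforming growth factor beta, were nominally higher, the latter by 1.57 (1.17 position-adjusted). Vim (vimentin) was nominally lower, at -1.37 (-0.81 position-adjusted), and Cspg4, the pericyte proteoglycan NG2, with noncancerous 1 at the lower limit, differed by -1.07 (-0.47, -0.59 without noncancerous 1). Of 20 markers 13 were above 0, with a median of 0.31 (0.047 without control 2). Their nominal counts were 4 higher and 1 lower, beside 3.97% and 5.47% of all genes. The position-adjusted median was 0.01, with 2 higher, and the median without control 5 was 0.09. In whole tissue, fewer cells of a type and less RNA per cell cannot be told apart.

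Genes of the transforming growth factor beta pathway had 1 nominal member. Tgfb1, the chief profibrotic cytokine, differed by 0.70 (-1.12 to 2.52, 0.21 position-adjusted, 0.38 without control 4). Spp1 (osteopontin), made by ductular cells and macrophages, differed by -0.14 (-1.36 to 1.08, -0.63 position-adjusted, 0.21 without control 5). The 36 genes of transforming growth factor beta, bone morphogenetic protein and activin signalling had a median of -0.16 (-0.05 position-adjusted), with 1 nominal member by both measures, Tgfbr3. Bmp6, which signals iron status to hepatocytes, lay at -1.07 (-2.21 to 0.06, -0.51 position-adjusted).

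Ductular and adhesion genes were above 0 more often than below on the normalized ratios. Of 11 cholangiocyte markers 9 were above 0, with a median of 0.43 (0.04 position-adjusted, 0.22 without noncancerous 4). The 1 nominal member, on the normalized ratios, was the water channel Aqp1, which differed by 1.62 (1.09 position-adjusted), with control 1 at the lower limit. Among 24 integrins and adhesion molecules the median was 0.39 (0.13 position-adjusted, 0.22 without noncancerous 1). Selp (P-selectin, which slows leukocytes on endothelium) was the 1 nominal member by both measures, with -0.82, -1.28, 0.11, -0.62 and -0.04 in controls 1 to 5 and 0.95, 1.02, 1.90, 0.28 and 0.51 in noncancerous 1 to 5. The groups did not overlap on the normalized ratios, and the difference was 1.46 (0.28 to 2.64, limma adjusted p = 0.413). Position-adjusted it was 1.06, and there the groups overlapped. Vcam1, another leukocyte receptor, differed by 1.46 (-0.12 to 3.04, 1.10 position-adjusted, 0.95 without control 1).

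Among hepatocyte secretory genes, apolipoprotein A-I and thyroxine-binding globulin had the highest test statistics. Apoa1, the main protein of high density lipoprotein, read -0.33, -2.66, 0.50, -2.01 and -0.86 in controls 1 to 5 and 1.91, 0.02, 2.12, 2.01 and 0.33 in noncancerous 1 to 5. Control 3 overlapped noncancerous 2 and 5, and noncancerous 1, 3 and 4 stood above every control. The difference was 2.35 (0.83 to 3.87, limma adjusted p = 0.315) and 1.93 (0.60 to 3.27) position-adjusted. Serpina7, the thyroxine-binding globulin, differed by 2.29 (0.54 to 4.03; 1.42 position-adjusted) and by 2.98 without control 5. Proc, the anticoagulant protein C, differed by -0.89 (-0.34).

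The 21 plasma and coagulation proteins had a median of 0.47 (0.05 without noncancerous 1), with 14 above 0. Nominally 3 were higher and 0 lower, beside 3.97% and 5.47% of all genes. Position-adjusted the median was 0.19 with 2 higher, and without control 5 it was 0.20. The 22 acute phase and complement genes went the other way on the normalized ratios, with 5 above 0 and a median of -0.31, and with 0 nominally higher and 1 lower (0 and 0 position-adjusted). Their position-adjusted median was 0.23, with 15 above 0, so the sign depended on the adjustment. Masp2, a protease of the lectin pathway of complement, differed by -1.37 (-0.58 position-adjusted), Cfi, the complement factor I, by -1.23 (-0.68) and Itih4, an acute phase inter-alpha-inhibitor chain, by 0.99 (1.23, 0.49 without noncancerous 3).

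Lipid transport genes had the highest median of the lists. Of 28 genes 20 were above 0 and the median was 0.65, with 7 nominally higher and 1 lower, beside 3.97% and 5.47% of all genes. Position-adjusted the median was 0.32, with 4 higher and 0 lower beside 2.18% and 1.88% of all genes. Apoa1 was one of the 4, and Scarb2, a lysosomal membrane protein related to the scavenger receptors, differed by 1.73 (0.75 to 2.72; 0.93 position-adjusted). Apoe, the ligand by which remnant lipoproteins are cleared, was the 1 nominally lower member at -1.49 (-0.49 position-adjusted). Of the 28 probes 19 are numbered under 1600, as are 1327 of all 3400.

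Genes that make and burn fatty acids had medians near 0 by both measures. Fasn, the fatty acid synthase, differed by 0.03 (-1.22 to 1.27, -0.37 position-adjusted, -0.30 without control 4), Cpt1a, the gate of mitochondrial oxidation, by 0.09 (-0.97 to 1.15, -0.24 position-adjusted, -0.29 without noncancerous 3), and Ppara, the nuclear receptor for fatty acids, by 0.31 (-0.89 to 1.50, -0.13 position-adjusted, -0.26 without control 1). The 20 synthesis genes had a median of 0.10 (-0.02 position-adjusted). Nominally 1 was higher and 5 lower, beside 3.97% and 5.47% of all genes, and none was nominal position-adjusted. Acly, which makes cytosolic acetyl-CoA, was nominally lower at -1.50 (-0.30 position-adjusted, -0.98 without noncancerous 4) and Me1, the malic enzyme that supplies NADPH, was nominally higher at 1.35 (0.59). Acsl3, an acyl-CoA synthetase of lipid droplets, differed by -1.43 (-0.90 position-adjusted). The 38 oxidation and peroxisomal genes had a median of 0.04 (0.07 position-adjusted), with 1 nominally higher and 1 lower (1 and 0 position-adjusted). Among them the enoyl-CoA isomerase Eci1 differed by -1.22 (-0.67), the sterol carrier protein Scp2 by 1.21 (0.92) and the acyl-CoA dehydrogenase Acadsb by 0.87 (0.40).

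Carriers that take up bile acids and organic anions lay on both sides of 0. Slco1a1, an organic anion carrier of the sinusoidal membrane, differed by 1.91 (0.56 to 3.26, limma adjusted p = 0.374; 1.39 position-adjusted), beside the 1.34 of Slc10a1. Its relative Slco1b2 lay on the other side at -1.01 (-0.19 position-adjusted), as did Slc27a2, a fatty acid and bile acid CoA ligase, at -1.19 (-0.52). Cyp7a1, the rate-limiting enzyme of bile acid synthesis, differed by 1.38 (-0.46 to 3.23, 0.90 position-adjusted, 0.70 without control 2), with controls 1 and 2 at the lower limit. The 31 cholesterol and bile acid genes had a median of 0.22 (0.22 position-adjusted), with 2 nominally higher and 0 lower (1 and 0 position-adjusted).

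The solute carriers are the longest of the 54 lists. Of 115 measured, 83 were above 0 and the median was 0.46, with 12 nominally higher and 2 lower, beside 3.97% and 5.47% of all genes. Position-adjusted 77 were above 0, the median was 0.19, and 6 were nominally higher and 0 lower, beside 2.18% and 1.88%. Beside Slc9a3, the peptide transporter Slc15a2 was one of them, with -0.99, -1.27, -1.75, -0.41 and -0.61 in controls 1 to 5 and 1.25, -0.55, 2.49, -0.01 and 1.28 in noncancerous 1 to 5. Every control was below 0, and only noncancerous 2 lay among them. Slc15a2 differed by 1.89 (0.62 to 3.17, limma adjusted p = 0.355) and by 1.51 position-adjusted. The 33 ABC transporters and ATPase pumps had a median of 0.58 (0.24 position-adjusted, 0.35 without control 2), with 1 nominally higher and 1 lower (1 and 0 position-adjusted), and Abcc5, a cyclic nucleotide exporter, differed by 1.13 (1.09 position-adjusted, 0.66 without control 3).

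Among drug-metabolizing genes, the medians of cytochrome P450 genes and of transferases changed sign with position adjustment. Cyp2c11, the P450 that male rats express most in liver, read 1.28, 0.02, 1.43, 0.18 and -0.76 in controls 1 to 5 and 0.46, -0.98, -0.74, -1.52 and 0.45 in noncancerous 1 to 5. The groups overlapped, with control 5 low among controls and noncancerous 1 and 5 high in their group. It differed by -0.90 (-2.12 to 0.32, limma adjusted p = 0.608), by -1.30 (-2.33 to -0.26) position-adjusted, and by -1.61 position-adjusted without control 5.

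Over 38 cytochrome P450 genes the median difference was 0.27 (0.077 without noncancerous 5) with 28 above 0. Position-adjusted the median was -0.11 with 15 above 0, and 30 of the 38 probes are numbered under 1600. The 1 nominal member on the normalized ratios was Cyp2g1, a P450 known from olfactory mucosa, at 1.52 (0.71 position-adjusted), the 1 position-adjusted was Cyp2c11, and the steroid hydroxylase Cyp17a1 differed by 1.03 (0.56). The 27 glucuronosyl-, sulfo- and glutathione transferases had a median of 0.10 (-0.19 position-adjusted), with 1 nominally higher and 1 lower (1 and 0 position-adjusted). Nat1, an arylamine acetyltransferase, differed by 1.68 (0.59 to 2.77; 1.23 position-adjusted) and Ugt2a1 by -1.11 (-0.34). The 35 alcohol, aldehyde and carbonyl enzymes had a median of -0.02 (-0.16 position-adjusted), with 1 nominally higher and 3 lower (1 and 1 position-adjusted). Aldh5a1, which oxidizes succinate semialdehyde, differed by 2.06 (1.45 position-adjusted), with control 1 at the lower limit, and the aldehyde oxidase Aox1 by -1.24 (-0.94). The 23 growth hormone axis and sex-dependent genes had a median of 0.25 (-0.06 position-adjusted, 0.15 without control 3) and 1 nominally higher and 0 lower (0 and 1 position-adjusted), with the prolactin receptor Prlr at 1.32 (0.36) and the signalling inhibitor Cish at -0.60 (-0.52, -0.37 without noncancerous 4).

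In sugar metabolism the median of the glycolysis genes was above 0 and that of the gluconeogenesis genes below it on the normalized ratios. The 26 glucose uptake and nonhepatic glycolysis genes had a median of 0.54 (0.29 without noncancerous 1), with 19 above 0. Nominally 3 were higher and 0 lower, beside 3.97% and 5.47% of all genes. Position-adjusted the median was 0.16 with 1 higher. Hk2, the hexokinase of muscle and tumours, differed by 1.66 (0.86 position-adjusted) and Tpi1, triosephosphate isomerase, by 2.25 (1.65), while Pkm, the nonhepatic pyruvate kinase, differed by -0.76 (-0.38). The 18 gluconeogenesis and glycogen genes had a median of -0.35 (0.00042 position-adjusted, -0.14 without control 4), with 0 nominally higher and 1 lower (0 and 1 position-adjusted). Gyg1, the glycogenin that primes glycogen, was separated on the normalized ratios only and differed by -1.16 (-2.13 to -0.20, -0.98 position-adjusted). G6pc1, the glucose-6-phosphatase of hepatocytes, differed by -1.50 (-0.82, -0.93 without noncancerous 4) and Fbp1, of gluconeogenesis, by 1.09 (0.60, 0.66 without control 4), and neither was nominal.

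Amino acid enzymes contained large differences in both directions. Otc, the ornithine transcarbamylase of the urea cycle, differed by 2.28 (0.73 to 3.82; 1.87 position-adjusted) and Hal, which starts histidine breakdown, by 1.99 (1.03). Bckdha, of branched-chain amino acid breakdown, differed by -2.04 (-0.96), beside the -2.20 of Got1. Over 39 genes the median was -0.11 (-0.04 position-adjusted). Nominal counts were 3 higher and 5 lower, beside 3.97% and 5.47% of all genes (1 and 1 position-adjusted, beside 2.18% and 1.88%).

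Mitochondrial genes had medians on either side of 0 by the 2 measures or close to it. The 28 respiratory chain and ATP synthase genes had a median of 0.27 (-0.12 position-adjusted, 0.13 without noncancerous 1), with 1 nominally higher and 2 lower (0 and 0 position-adjusted). The ATP synthase subunits Atp5po and Atp5pf differed by -2.52 (-1.92, -3.48 without control 5) and -1.16 (-0.60), and the uncoupling protein Ucp1 by 1.58 (1.20). The 18 citric acid cycle and carrier genes had a median of 0.10 (0.14 position-adjusted), with 0 nominally higher and 1 lower (1 and 0 position-adjusted). The dicarboxylate carrier Slc25a10 differed by -1.23 (-0.41 position-adjusted), and Dlat, of pyruvate dehydrogenase, by 1.16 (1.86), or 0.62 without noncancerous 2.

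Antioxidant genes had a median below 0 by both measures. Of 31 genes 9 were above 0 on the normalized ratios (median -0.38, or -0.16 without control 1) and 10 position-adjusted (median -0.31). Nominally 0 were higher and 4 lower, beside 3.97% and 5.47% of all genes. Position-adjusted 0 were higher and 1 lower, beside 2.18% and 1.88%. Hmox1, the inducible haem oxygenase, read 0.79, 0.63, 0.28, 0.50 and 1.72 in controls 1 to 5 and -1.02, 0.32, 0.64, -1.07 and -2.15 in noncancerous 1 to 5. All controls were above 0, and noncancerous 2 and 3 overlapped them. Hmox1 differed by -1.44 (-2.51 to -0.37, limma adjusted p = 0.392) and -0.38 (-1.41 to 0.65) position-adjusted, and its constitutive relative Hmox2 by -1.73 (-0.90). Nos2, the inducible nitric oxide synthase, differed by 1.44 (-0.31 to 3.19, 1.06 position-adjusted, 0.88 without noncancerous 2). The 18 haem and iron genes had a median of 0.10 (0.19 position-adjusted). Nominally 0 were higher and 3 lower (0 and 0 position-adjusted), beside the same shares of all genes. The transferrin receptor Tfrc lay at 1.43 (1.05).

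Among genes of protein synthesis, the ribosomal proteins had more members above 0 after position adjustment than before it. The 43 cytoplasmic ribosomal protein genes had a median of 0.08 on the normalized ratios and, position-adjusted, 0.37, the highest of the lists, with 31 above 0. They had 1 nominally higher and 4 lower, beside 3.97% and 5.47% of all genes (0 and 1 position-adjusted, beside 2.18% and 1.88%). Rpl39 lay against this at -2.27 (-1.91 position-adjusted; -1.55 without control 5) and Rpl37l1 at -1.25 (-0.74), while Rps29 and Rpl11 lay at 1.23 (0.81) and 1.16 (0.62). Ribosomal protein genes have many near-identical copies, so a probe may not belong to 1 gene alone. The 15 translation factors had a median of -0.37 (0.09 position-adjusted, -0.14 without control 2) and 0 nominally higher and 0 lower (0 and 0 position-adjusted), with the stress kinase Eif2ak3 at -1.13 (-0.97, -0.66 without control 4) and the initiation factor Eif5 at 1.09 (0.72, 0.66 without control 4).

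Heat shock proteins and chaperones had a median of -0.01 over 32 genes (-0.02 position-adjusted), with 1 nominally higher and 1 lower (0 and 0 position-adjusted). Serpinh1, the chaperone of collagen, was the higher at 1.52 (0.76) and Pdia3, a disulfide isomerase, the lower at -1.17 (-0.56). Hspa5, the main chaperone of the endoplasmic reticulum, differed by 1.20 (0.80). Proteasome and ubiquitin genes had a median of -0.02 over 32 genes (-0.33 position-adjusted). The 1 nominal member by each measure was the ubiquitin-like modifier Nedd8, at -1.24 (-1.10), and the immunoproteasome subunit Psmb9 lay at 1.03 (0.59, 0.63 without noncancerous 3).

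Lysosomal genes held differences of over 2 in both directions. Acp2, the lysosomal acid phosphatase, read -2.39, -2.79, -3.19, -0.002 and -0.56 in controls 1 to 5 and 0.99, 0.29, 0.68, 2.26 and 0.53 in noncancerous 1 to 5. Controls 1 and 3 were at the lower limit, all controls were below 0 and all noncancerous samples above it. The difference was 2.73 (1.31 to 4.16, limma adjusted p = 0.307) and 1.97 (0.66 to 3.29) position-adjusted, where the groups overlapped. Ppt1, a lysosomal thioesterase, differed by 2.29 (1.69 position-adjusted), and Cd63, a membrane protein of late endosomes, by -2.37 (-1.81). Over 22 lysosomal genes the median was 0.10 (0.04 position-adjusted). Nominal counts were 4 higher and 1 lower, beside 3.97% and 5.47% of all genes (3 and 1 position-adjusted, beside 2.18% and 1.88%).

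Markers of immune and vascular cells had nominal members in both directions, to be set against the 3.97% of all genes nominally higher and 5.47% lower. Among 8 Kupffer cell and macrophage markers 4 were above 0. The median was within 0.25 of 0 by both measures, and 2 were nominally lower (0 position-adjusted). These were Lgals3 (galectin-3) at -2.18 (-1.08 position-adjusted) and the Kupffer cell lectin Clec4f at -1.59 (-0.70), while the immunoglobulin receptor Fcgr2a lay at 1.26 (0.51). The 23 lymphocyte markers had a median of 0.23 (-0.07 position-adjusted). Cd28, a costimulatory receptor of T cells, was their 1 nominal member by both measures at 2.57 (2.09), with control 1 and control 3 at the lower limit. Cd2, with controls 1 and 2 at the limit, differed by 1.66 (1.20, 0.94 without control 2). The 8 neutrophil and mast cell markers had a median of -0.33 (-0.46 position-adjusted, -0.10 without noncancerous 3) with 0 nominal, and the mast cell carboxypeptidase Cpa3 lay at -0.92 (-0.84).

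Of 15 antigen presentation genes 8 were above 0 (median 0.02, 0.21 position-adjusted). B2m, the light chain of class I molecules, was the 1 nominal member by both measures at 2.04 (1.56 position-adjusted, 1.53 without control 3, which was at the lower limit). The peptide transporter Tap2 lay at 0.95 (0.41, 0.60 without control 2) and the class II loading factor RT1-DMa at -1.39 (-0.50, -0.92 without noncancerous 3). The 12 endothelial markers had a median of 0.28 (0.043 without control 3) by the normalized ratios and 0.28 position-adjusted, with 2 nominally higher and 3 lower (1 and 2 position-adjusted). Selp and the angiotensin-converting enzyme Ace were the higher, Ace by 1.36 (0.88 position-adjusted, 0.82 without control 3, which was at the lower limit). Tfpi and Thbd, which restrain coagulation on the vessel wall, were among the lower at -1.60 and -1.19 (-0.99 and -0.95 position-adjusted). In none of these marker lists did a member pass the adjusted threshold in limma.

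Cytokines and chemokines were divided about evenly around 0. Of 75 genes 38 were above 0 (median 0.08), with 1 nominally higher and 9 lower, beside 3.97% and 5.47% of all genes. Position-adjusted 0 were higher and 3 lower, beside 2.18% and 1.88%. Il5, the eosinophil growth factor, read 1.68, 0.87, 1.09, 1.95 and -0.93 in controls 1 to 5 and -1.28, -1.63, -2.22, -0.40 and -0.41 in noncancerous 1 to 5. Control 5 was the 1 control below 0. Il5 differed by -2.12 (-3.25 to -0.98, limma adjusted p = 0.307), by -1.32 position-adjusted and by -2.59 without control 5. Xcl1, a lymphocyte chemokine, was separated on the normalized ratios only and differed by -1.25 (-0.89). Tnf lay at 0.99 (0.53) and Il1rl1, the receptor of interleukin 33, at 1.39 (0.92).

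Growth factor genes had the largest share of members above 0 of the 54 lists on the normalized ratios. Of 60 peptide growth factors and receptors 50 were above 0, with a median of 0.49, and 10 were nominally higher and 0 lower, beside 3.97% and 5.47% of all genes. Position-adjusted 36 were above 0, the median was 0.11, and 5 were nominally higher and 0 lower, beside 2.18% and 1.88%. Fgf9 read -0.71, 0.02, -0.90, -0.88 and 0.32 in controls 1 to 5 and 0.33, 1.01, 1.66, 1.68 and 0.98 in noncancerous 1 to 5. Control 5 was the highest control and almost level with noncancerous 1, the lowest of its group. Fgf9 differed by 1.56 (0.57 to 2.55, limma adjusted p = 0.307) and by 1.16 position-adjusted, where the groups overlapped. Bdnf, the brain-derived neurotrophic factor, lay on the other side at -1.23 (-0.70, -0.78 without noncancerous 1, which was at the lower limit). Of the 60 probes 48 are numbered under 1600.

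Families best known from neurons differed among themselves, with neurotransmitter receptors mostly above 0 before position adjustment and ion channels divided about evenly. Of 51 ligand-gated neurotransmitter receptors, with 42 probes numbered under 1600, 41 were above 0 (median 0.44), and position-adjusted 27 were (median 0.03). Despite this they had 0 nominally higher and 1 lower (1 and 1 position-adjusted). Of 111 G protein-coupled receptors 71 were above 0 (median 0.23), and position-adjusted 44 were (median -0.07), with 2 nominally higher and 2 lower (0 and 0 position-adjusted). The nicotinic receptor subunits Chrnb4 and Chrna7 lay at -1.49 (-1.10 position-adjusted) and 1.10 (0.65), and the endothelial receptor Gpr182 at -1.44 (-0.51). The opioid receptor Oprk1 was -0.32 ± 0.45 in control and 0.68 ± 0.40 in noncancerous liver (SD, n = 5 each), on the normalized ratios. Of the 111 G protein-coupled receptors 0 were separated by either measure, and 0 were nominal position-adjusted. The 53 synaptic vesicle and exocytosis genes had a median of 0.26 (0.064 without control 1) and, position-adjusted, 0.23. Their nominal counts were 5 higher and 2 lower, beside 3.97% and 5.47% of all genes (2 and 1 position-adjusted, beside 2.18% and 1.88%). Syn2, of synaptic vesicles, differed by 2.76 (2.45 position-adjusted; 1.63 on the normalized ratios without control 4) and Dnm1, the dynamin of endocytosis, by -2.12 (-1.55). The 104 channel genes had a median of 0.02 (-0.02 position-adjusted). Nominally 5 were higher and 5 lower (2 and 1 position-adjusted), beside the same shares of all genes. The potassium channel genes Kcnj12 and Kcne3 lay at 1.81 (1.28) and -1.70 (-0.89).

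Markers of preneoplastic foci and fetal liver, the lesions that precede carcinoma in this model, had a median of 0.49 (0.32 without noncancerous 3) over 25 genes and 0.05 position-adjusted. Nominally 2 were higher and 1 lower, beside 3.97% and 5.47% of all genes. Position-adjusted 1 was higher, beside 2.18% of all genes. Ggt1, the gamma-glutamyltransferase of foci, differed by 0.91 (-0.14 to 1.96; 0.09 position-adjusted), and the placental glutathione transferase Gstp1 by 0.50 (0.02, 0.23 without noncancerous 4). Afp, the fetal serum protein, differed by -0.56 (-1.57 to 0.46, -0.41 position-adjusted, -0.33 without noncancerous 3) and the fetal growth factor Igf2 by 0.54 (-0.47 to 1.56, 0.18 position-adjusted, 0.35 without noncancerous 2). Aldh3a1, an aldehyde dehydrogenase of rat liver tumours, lay below 0 at -1.90 (-0.73), and Krt18, a hepatocyte keratin, at -1.12 (-0.78). Igf2r, which clears the growth factor Igf2, was nominally higher at 1.24 (0.90).

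Cell cycle and death genes pointed both ways. Over 41 cell cycle and replication genes the median was 0.33 (0.02 position-adjusted, 0.028 without control 2). Nominal counts were 1 higher and 1 lower, beside 3.97% and 5.47% of all genes (1 and 3 position-adjusted, beside 2.18% and 1.88%). Ccnd3, a D-type cyclin, with control 1 at the lower limit, differed by 2.03 (0.76 to 3.29, 1.63 position-adjusted). Its relative Ccnd1 differed by 1.29 (-0.09 to 2.68, 0.88 position-adjusted, 0.77 without noncancerous 1). Stmn1, a microtubule destabilizer of dividing cells, read 1.03, 1.21, 0.76, 0.92 and 0.92 in controls 1 to 5 and -1.48, -0.97, -0.09, -2.94 and -0.80 in noncancerous 1 to 5. The controls were close together, and the noncancerous samples all lay below them. Stmn1 differed by -2.22 (-3.30 to -1.14, limma adjusted p = 0.307) and by -1.02 position-adjusted, where the groups overlapped. The 26 apoptosis genes had a median of 0.41 (0.12 position-adjusted, 0.22 without control 1) and 1 nominally higher and 2 lower (1 and 0 position-adjusted), with the initiator caspase Casp9 at -1.53 (-0.65), the pore former Bak1 at -1.21 (-0.26) and the caspase inhibitor Xiap at 1.37 (1.05).

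Regulators of transcription are given beside the 9.44% of all genes that were nominal on the normalized ratios and the 4.06% position-adjusted. The 22 liver transcription factors had a median of -0.04 (0.20 position-adjusted), with 2 nominally higher and 2 lower (0 and 0 position-adjusted). Hnf4a, the main hepatocyte factor, differed by -1.06 (-2.07 to -0.05; -0.35 position-adjusted), Cebpb by 1.98 (1.03) and Nfkb1 by 1.52 (1.16). The 34 immediate early genes had a median of 0.36 (0.10 position-adjusted) and 1 nominally higher and 1 lower (0 and 0 position-adjusted), with the cytokine signalling inhibitor Socs3 at -1.21 (-0.38) and the antiproliferative Btg1 at 1.24 (0.80). The 34 nuclear receptors had a median of 0.15 (-0.09 position-adjusted) with 0 nominal by either measure, the estrogen receptor Esr2 at 0.85 (0.51, 0.50 without control 4) and the oxysterol receptor Nr1h2 at 1.07 (0.37, 0.70 without control 4).

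Signalling enzymes and the cytoskeleton had medians within 0.25 of 0 by both measures. The 52 serine-threonine kinases of the MAPK, PKC, PKA and calcium pathways had a median of 0.05 (-0.04 position-adjusted), with 2 nominally higher and 3 lower (0 and 2 position-adjusted). Pdpk1, which activates Akt, differed by -1.84 (-1.38) and the atypical kinase Prkci by 2.01 (1.39, 1.11 without control 4). The 44 tyrosine kinases and phosphatases had a median of 0.03 (-0.13) and 1 nominally higher and 2 lower (0 and 1 position-adjusted), with the ephrin receptor Epha8 at 1.53 (0.99, 1.01 without control 1) and the phosphatase Ptprh at -1.13 (-0.57). Among 28 serine and threonine phosphatase genes the median was -0.01 (-0.01), with 0 nominally higher and 1 lower (0 and 1 position-adjusted), and the phosphatase-binding neurabin Ppp1r9a lay at -0.90 (-0.87).

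The 55 small GTPases and regulators had a median of -0.06 (-0.06) and 2 nominally higher and 0 lower (0 and 1 position-adjusted), with Hras at 1.21 (0.85, 0.74 without control 2) and the Rab regulator Gdi2 at 1.20 (0.66). Over 76 G protein, phospholipase, cyclase and phosphodiesterase genes the median was -0.06 (-0.21). Nominally 1 was higher and 3 lower, beside 3.97% and 5.47% of all genes. Position-adjusted 0 were higher and 4 lower, beside 2.18% and 1.88%. Pik3r2, a phosphoinositide kinase subunit, lay at -2.16 (-1.51 position-adjusted) and the phospholipase Pld2 at -2.41 (-1.45). The 67 cytoskeleton genes had a median of -0.17 (-0.04), with 1 nominally higher and 5 lower (1 and 1 position-adjusted). Their muscle members lay on both sides, with Myh1 at 1.87 (2.27), Tpm1 at 1.66 (0.84) and Tnni1 at -2.12 (-0.91).

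Over the 54 lists, 35 medians were above 0 on the normalized ratios and 29 position-adjusted. The adjustment brought 37 of the 54 medians nearer 0 and changed the sign of 16. The medians ranged from -0.85 to 0.65 before it and from -0.46 to 0.37 after it.

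**Figure D5:**
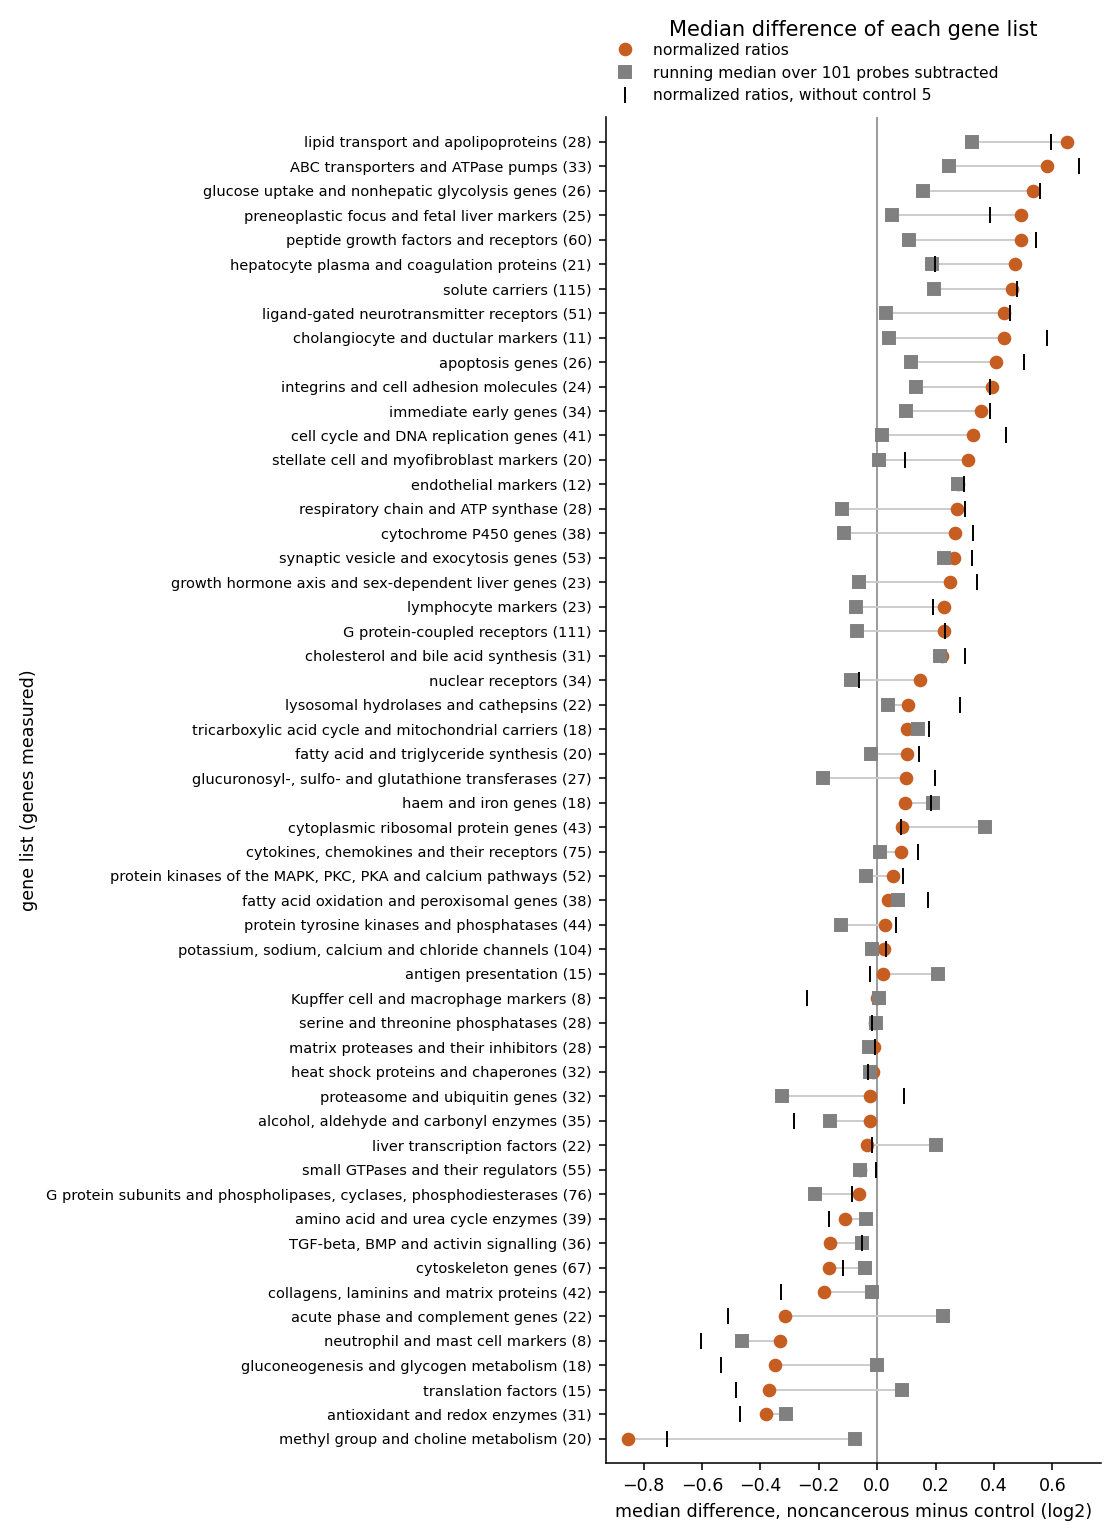
Median difference between noncancerous and control liver (log2) of the measured members of each of 54 gene lists, on the normalized ratios (circles), position-adjusted (squares) and without control 5 (bars). Lipid transport genes are at the top with 0.65 and methyl and choline genes at the bottom with -0.85, and most squares lie nearer 0.

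Leaving out control 5 raised the number of nominal probes, and leaving out noncancerous 2 did not. Without control 5, 528 probes were nominal (14.1%), 227 of them (6.04% of all) higher, and 199 were separated (5.3%), with a smallest adjusted p of 0.0685 in limma. Without noncancerous 2 the counts were 351 nominal (9.34%) and 141 separated (3.75%). Without both they were 434 (11.6%) and 278 (7.4%), with a smallest adjusted p of 0.0814. Position-adjusted and without control 5, 296 probes were nominal (7.88%) and the smallest adjusted p was 0.154. In each of these settings 0 probes passed the adjusted threshold. Fewer samples separate more easily, so the counts of separated probes are not comparable with those over all 10 samples.

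The genes nearest the threshold without control 5, chosen after their values were seen, included Sp1, Pou3f3 and Il5. Sp1, a transcription factor of many housekeeping promoters, read 1.79, 0.97, 1.09, 2.07 and -1.13 in controls 1 to 5 and -0.68, -0.72, -2.28, -0.87 and -1.01 in noncancerous 1 to 5. Control 5 lay below every noncancerous sample but noncancerous 3, while the other 4 controls lay above all of them. Sp1 differed by -2.07 over all samples, by -1.49 position-adjusted and by -2.60 (-3.61 to -1.59, limma adjusted p = 0.0685) without control 5. Pou3f3 and Il5 then differed by -2.75 and -2.59. F13a1, the A chain of coagulation factor XIII, went the other way, from 1.98 (2.29) to 2.92, with controls 1 and 2 at the lower limit. Of the lists, 3 of 54 medians changed sign without control 5.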

How the data were processed

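The data are a deposited table of linear ratios, 1 column a sample, from expression arrays of rat liver. The deposited ratio of each probe has a median of 1 over the 15 arrays and a lower limit of 0.01. The array type, the reference behind the ratio, the background correction and the genome build are unknown from the labels and the table, and neither depth nor detection calls are known. All columns were used through their sample titles.

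The ratios were quantile-normalized between arrays, put on the log2 scale and fitted with limma 3.58.1 in R 4.3.3 (lmFit, eBayes with a trend) over 3 groups and all 15 arrays, leaving 12 residual degrees of freedom. The contrast was noncancerous minus control, with Benjamini-Hochberg adjustment over 3757 probes and a threshold of 0.05. The procedure was tested on simulated data. These were the 15 arrays with each group's mean removed from every probe, dealt at random to the samples. Removing the mean narrows the spread and takes out the mean shift between groups along the numbering, so results on the real arrays may differ. In the simulated data the adjusted threshold found 3.9% of the probes changed by 1 (log2), 47% of those changed by 2 and 86.2% of those changed by 3. A mean of 2.65 unchanged probes also passed it. A count of 0 probes past this threshold therefore does not show that no gene changed. Of the probes, 3440 have 1 gene symbol, 4 several and 313 none, and 3429 symbols matched RefSeq names of assembly GRCr8. Quantities on genes use 1 probe a gene, that with the smallest spread within groups. Separated means that all 5 values of a group lie beyond all 5 of the other.

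Genes are named by this rule: 26 markers always, any probe past the adjusted threshold, up to 12 separated genes each side that stay separated with the running median subtracted, and in each of 54 lists up to 2 with the highest and up to 2 with the lowest test statistic. Sp1 and F13a1 fall outside it. The members and lists were chosen with earlier results of these data known. Alternatives covered scaling, the pseudocount, a floor, the running median, the fit, the choice of probe, a replicate block and leaving out samples. Samples with the same number were compared across the groups, and the correlations of their deviations were 0.32, -0.04, -0.14, -0.14 and 0.07, so the numbers were not taken to pair them.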

Additional observations from a re-analysis of the deposited data

Results flagged for a closer look

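In 322 groups of 5 values, those of the 161 genes named above in control and in noncancerous liver, 16 held a sample that stood far from the other 4 by Dixon's criterion of 0.71. Chance gives about 1 in 20 such groups, which is about the share found here, so the samples listed are no more than chance would give. All values are log2 normalized ratios, and no explanation was tested.

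Among the controls, 6 of the 16 were found. Aldh3a1 was 3.47 in control 2, while the other 4 samples of its group lay between 0.24 and 1.09. In control 5, Clec4f read -2.20, against 0.51 to 1.40 in the rest of the group. Col5a2 stood at 2.38 in control 4 and at 0.14 to 0.74 in the remaining samples. For Ppara the value of control 1 was -2.39, and the others ranged from -0.03 to 0.84. Syn2 was -5.81 in control 4, while the other 4 samples of its group lay between -0.88 and 0.40. In control 4, Tnni1 read 3.79, against 0.019 to 0.97 in the rest of the group. The value of Ppara in control 1 was at the lower limit of the table.

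Among the noncancerous samples, 10 were found. Aqp1 was -0.093 in noncancerous 3, while the other 4 samples of its group lay between 1.05 and 1.46. In noncancerous 1, Ccnd1 read 2.67, against 0.022 to 0.29 in the rest of the group. Cd28 stood at 2.41 in noncancerous 2 and at 0.61 to 0.97 in the remaining samples. For Cyp2g1 the value of noncancerous 3 was 2.46, and the others ranged from 0.066 to 0.62. Dlat was 2.70 in noncancerous 2, while the other 4 samples of its group lay between -0.13 and 0.17. In noncancerous 1, Ggt1 read -0.043, against 0.76 to 1.03 in the rest of the group. Got1 stood at -2.88 in noncancerous 4 and at -0.72 to -0.61 in the remaining samples. For Slc9a3 the value of noncancerous 1 was 3.09, and the others ranged from 0.77 to 1.35. Sp1 was -2.28 in noncancerous 3, while the other 4 samples of its group lay between -1.01 and -0.68. In noncancerous 4, Vim read -2.40, against -0.71 to -0.088 in the rest of the group.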

How the results depend on the processing

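Every one of the 36 settings beside the reported one left 0 probes past the adjusted threshold in limma. The number with an unadjusted p under 0.05, 362 as reported, was 151 with a running median over 50 probes on either side subtracted, 161 with one over 150 on either side, and 218 with it subtracted and control 5 and noncancerous 2 left out. Of these, 82, 89 and 100 were higher, beside 151 as reported, and array quality weights gave 501 with 246 higher. Separated probes, 62 as reported, numbered 17, 18 and 108 under the same 3 settings, 278 without control 5 and noncancerous 2, and 146 without control 1 and noncancerous 1. Leaving out each sample in turn, with and without the running median, gave 91 to 528 probes with an unadjusted p under 0.05, 53 to 227 of them higher, and 25 to 199 separated probes. The ratios as deposited gave 287 and moved the median of all differences by 0.106. The replicate block gave 370, in a design where the numbers were not taken to pair the samples. The settings that leave out control 5 and noncancerous 2 together, and those that join the running median to a left-out sample, were chosen after seeing the data.

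Of 5765 recomputed differences of named genes, 5643 kept their sign, and 144 of 161 genes kept it in every setting run. Most of these genes were named for their test statistic or separation in the same values. That choice makes a kept sign likely, so the counts do not show how stable an unselected gene is. Of the 17 genes with a reversed value, all but Apoe are among the 24 markers that were always to be named. The cause was not tested for those that reversed. With the narrower running median the difference was -0.096 for Acta2, 0.14 for Col1a2, -0.24 for Cpt1a, -0.37 for Fasn, -0.13 for Ppara and -0.24 for Timp1. With the wider one it was 0.051 for Col1a2, -0.25 for Cpt1a, -0.37 for Fasn, 0.0038 for Gnmt, -0.31 for Ppara and -0.28 for Timp1. With the running median and without control 5 and noncancerous 2 it was -0.052 for Acta2, 0.29 for Col1a2, -0.20 for Cpt1a, -0.39 for Fasn, -0.019 for Ppara and -0.41 for Timp1. Without those 2 samples alone it was 0.0054 for Col1a2, 0.0033 for Mmp2 and 0.17 for Spp1, and without control 1 and noncancerous 1 it was -0.18 for Ppara. The ratios as deposited gave -0.11 for Acta2 and -0.20 for Fasn, as did scaling to the same median, with -0.11 and -0.20. The pseudocount of 0.1 gave -0.039 for Acta2. Array quality weights gave -0.0057 for Acta2, -0.017 for Alb, -0.14 for Cpt1a and 0.021 for Spp1.

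With 1 sample left out at a time, on the normalized ratios or with the running median subtracted as well, the differences of these genes ranged from -0.61 to 0.29 for Acta2, -1.96 to 0.049 for Apoe, -0.38 to 0.51 for Col1a2, -0.67 to 0.35 for Cpt1a and -0.66 to 0.41 for Fasn. They ranged from -0.052 to 1.20 for Ggt1, -1.25 to 0.36 for Gnmt, -0.27 to 0.86 for Gstp1, -1.81 to 0.059 for Hmox1, -0.062 to 0.87 for Igf2 and -1.25 to 0.035 for Mat1a. The ranges were -0.71 to 0.012 for Mmp2, -0.73 to 0.56 for Ppara, -0.90 to 0.21 for Spp1, -0.093 to 1.09 for Tgfb1 and -0.56 to 0.32 for Timp1. On the normalized ratios alone, leaving out 1 sample turned the sign of Acta2, Col1a2, Cpt1a, Fasn, Mmp2, Ppara, Spp1 and Timp1 and of no other of these genes, and the range of Apoe was -1.96 to -1.05. Of 1944 recomputed list medians, 299 moved by over 1 SD. Signal over background is unknown, which limits what can be said of low values.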
